A study of Atriplex prostrata and Atriplex rosea and Atriplex prostrata x Atriplex rosea with 87 samples.

Results

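Late leaf maturation was followed in Atriplex prostrata, which uses C3 photosynthesis, and Atriplex rosea, which uses C4 photosynthesis, from leaf plastochron index 0.3 to index 0.8. The index is a developmental age computed from leaf lengths, so that leaves of unlike size can be matched between plants. The 24 libraries described here, of 87 samples in the series, were chosen by their labels, with earlier results of these data known. They are A. prostrata leaves of 15 mm (index 0.3) and 18 mm (index 0.8) and A. rosea leaves of 11 mm (index 0.3) and 13 mm (index 0.8). Every leaf was divided into a bottom part (base) and a top part (tip), with 3 libraries for each part and age, so that 6 libraries stood on each side of the age comparison in each species. Both species were kept under shared growth chamber conditions, and the labels name no treatment, genotype or line. The question the design poses is which transcripts still change at this step and where maturation has stopped changing them.

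A leaf of a broad-leaved plant usually matures from the tip towards the base, and cell division ends earlier in the tip. As cells leave division they enlarge, build chloroplasts and turn from importing sucrose to exporting it. In C4 leaves phosphoenolpyruvate carboxylase (PEPC) first fixes carbon dioxide in the mesophyll, and a decarboxylase, in A. rosea mainly the mitochondrial NAD-malic enzyme, releases it next to Rubisco in the bundle sheath. In C3 leaves Rubisco fixes carbon dioxide directly.

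RNA sequencing reads were counted by the authors per Arabidopsis thaliana locus. Totals ran from 8028511 to 12387428 counts per library in A. prostrata and from 9377672 to 15360702 in A. rosea. Levels are given as CPM, counts scaled to a common library size with a factor that corrects for differences in library composition, and within a group the values follow replicates 1 to 3. Counts of the base and the tip of replicate 1 of the 15 mm A. prostrata leaves were nearly alike, with a chi-square of 1.14 per degree of freedom. The next closest pair of A. prostrata libraries was at 4.63 and pairs within a group were at 7.49 to 83.9, so results in that species were also taken without both of these libraries. Whether 1 library stands under both labels was not tested. If it does, the index 0.3 side holds 5 distinct libraries in place of 6, and 1 of the part labels is wrong. In A. rosea the base of replicate 3 and the tip of replicate 2 of the 13 mm leaves lay at 28.0 and 48.7, the highest values, on a first principal component that held 40.3% of the variance, while the other 10 libraries lay between -34.4 and 16.9. Results in A. rosea were therefore also taken without both of those libraries, called the libraries that stood apart. They were picked after their values were seen, and both are on the index 0.8 side. The base of replicate 2 of the 13 mm leaves, at the other end (-34.4), was kept. On that component the weights of mitosis and C4 cycle loci lay near opposite ends of all loci (median percentiles 0.473 and 97.4). Smaller estimates of such loci without the pair follow in part from how it was picked, and are no test of them. The base of replicate 3 of the 15 mm A. prostrata leaves lay at -59.6 on the first component of that species.

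**Figure D1:**
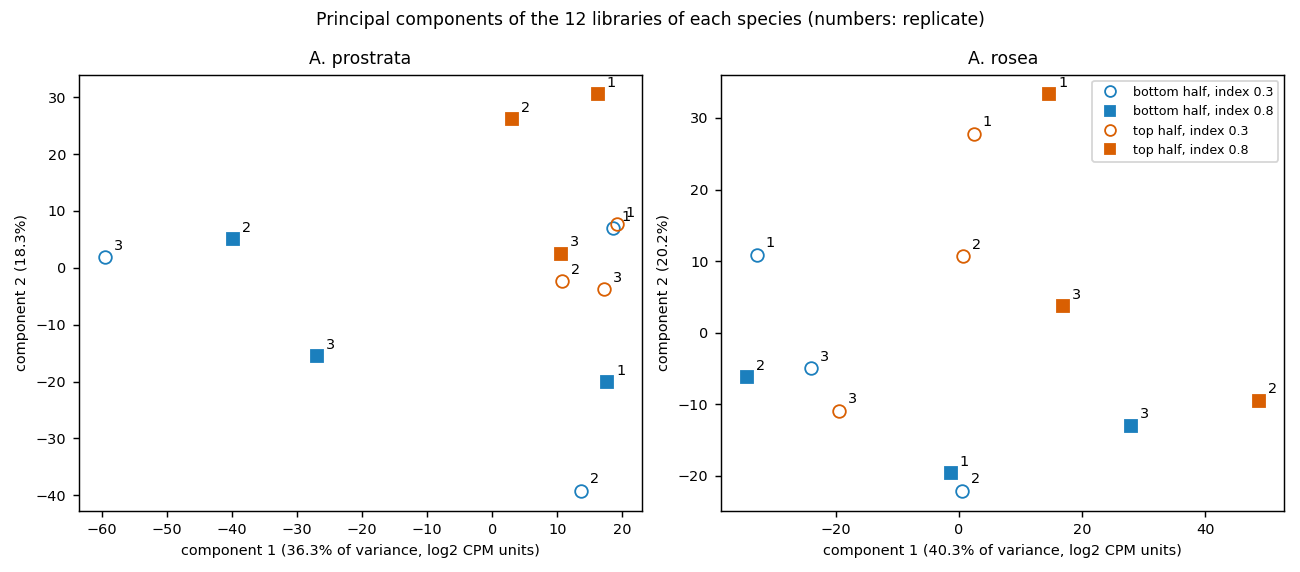
Principal components 1 and 2 (log2 CPM units, with the share of variance on each axis) of the 12 libraries of each species; open circles are index 0.3, filled squares index 0.8, blue bases, orange tips, and numbers are replicates. The ages are not separated in A. prostrata, where 3 bases lie at -27.0 or below on component 1, and in A. rosea the index 0.8 libraries spread from -34.4 to 48.7.

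No transcript met the threshold for a change with age in either species. A locus was called at an edgeR adjusted p under 0.05 over all loci tested together with a change of at least 2-fold. In A. prostrata 0% of 13767 loci were called, the lowest edgeR adjusted p was 0.388, and 334 loci (2.43%) had an unadjusted p under 0.05, 198 higher and 136 lower at index 0.8. In A. rosea 0% of 13746 loci were called, the lowest edgeR adjusted p was 0.331, and 1777 loci (12.9%) had an unadjusted p under 0.05, 1042 higher and 735 lower. Without both A. rosea libraries that stood apart, 318 loci were higher and 233 lower at that unadjusted level, 3.99% of 13821, and 0 were called. Without the nearly alike A. prostrata libraries 0 were called as well, and 281 loci were higher and 221 lower at that unadjusted level, 3.63%. The share at that level moved with single libraries in both species. With 1 library left out it ran from 1.86% to 6.78% in A. prostrata, the highest without the base of replicate 3 of the 15 mm leaves, where 520 loci were higher and 420 lower. In A. rosea it ran from 7.18% without the base of replicate 3 of the 13 mm leaves to 22.2% without the base of replicate 2 of the same length. These shares are therefore not compared between the species.

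Other tools and fits called few loci. DESeq2 with the same design called 9 loci in A. prostrata (0.0654%) and 3 in A. rosea (0.0218%), all higher at index 0.8. An edgeR fit that estimated the spread over all 48 libraries with mapped columns, young leaves included, called 4 loci in A. prostrata, 3 higher (0.0203%) and 1 lower (0.00677%). In A. rosea that fit called 47 loci as higher (0.318%) and 3 as lower (0.0203%), and it called 0 without both libraries that stood apart, with 278 loci higher and 365 lower at an unadjusted p under 0.05.

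The data limit how large a missed change could be for most loci. Loci whose 95% interval of the fold change lay inside 2-fold in both directions are called bounded here, a statement made locus by locus. Of the tested loci 13087 (95.1%) were bounded in A. prostrata and 12845 (93.4%) in A. rosea, and 12123 of the 13257 loci tested in both species (91.4%) were bounded in both. The intervals treat bases, tips and the nearly alike A. prostrata libraries as separate libraries, and may be too narrow where these share a source. Bounded loci held 99.3% of the summed level of tested loci in A. prostrata and 92.0% in A. rosea. The tighter limit of 1.5-fold was met by 70.8% and 74.5% of loci. The share depended on level in A. prostrata, with 82.4% bounded under 5 CPM, 97.6% from 5 to 50 CPM and 99.1% from 50 CPM. In A. rosea these shares were 85.0%, 95.6% and 96.5%. Bounded counts of the gene lists below are to be read beside these shares of all loci. Estimates of at least 2-fold were rare, 36 higher and 24 lower in A. prostrata, and 71 higher and 3 lower in A. rosea.

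**Figure D2:**
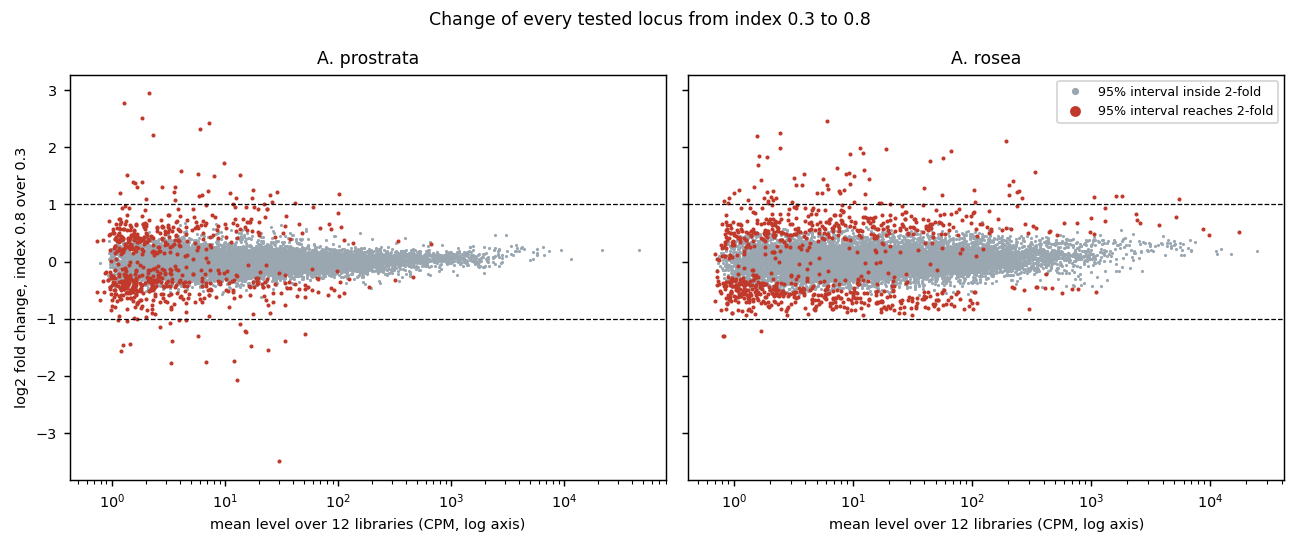
Log2 fold change from index 0.3 to 0.8 (y axis) against the mean level over 12 libraries (x axis, CPM, log scale) for every tested locus, one point a locus, with dashed lines at 2-fold; red points are loci whose 95% interval reaches 2-fold. In A. prostrata 680 loci are red and in A. rosea 901, where red points with higher levels at index 0.8 extend above 1000 CPM.

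The step before this one, from whole 7.5 mm leaves to index 0.3, gives a scale for these values. It shares the index 0.3 libraries with the late step and compares whole leaves with leaf parts, so the values are set side by side without a test between them. There the same kind of edgeR test called 1522 loci as higher and 665 as lower in A. prostrata (15.5% of 14106), and 702 as higher and 340 as lower in A. rosea (7.43% of 14024). Calls in each direction made up 10.8% and 4.71% of loci in A. prostrata and 5.01% and 2.42% in A. rosea.

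**Figure D3:**
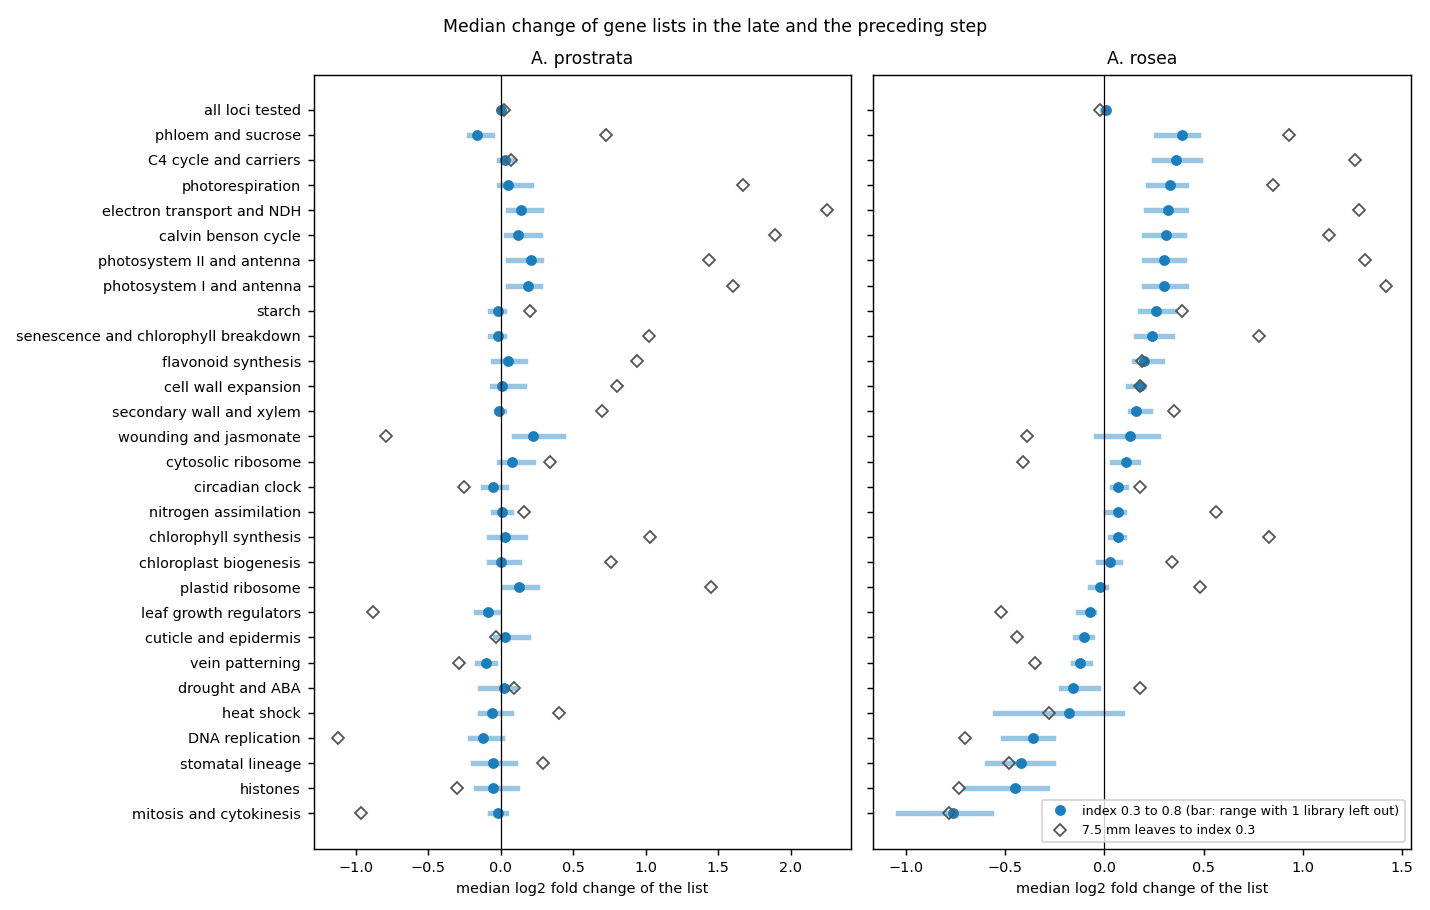
Median log2 fold change (x axis) of gene lists with at least 5 loci tested, from index 0.3 to 0.8 (filled circles, with bars for the range when each library is left out in turn) and from whole 7.5 mm leaves to index 0.3 (open diamonds); both steps share the index 0.3 libraries. In A. prostrata the late medians lie between -0.16 and 0.22, and in A. rosea between -0.76 and 0.39.

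The medians of the cell division genes lay apart in the 2 species, but no locus was called for a difference between the species. The mitosis and cytokinesis list holds 17 tested loci, among them cyclins, kinesins and proteins of the phragmoplast, the structure that builds the new cell wall. Its median log2 fold change was -0.02 in A. prostrata, with 8 loci above and 9 below 0 and 15 bounded. In A. rosea it was -0.76, with all 17 loci lower at index 0.8, 13 of them at an unadjusted p under 0.05 (5.35% of all loci were lower at that level), and 1 bounded. The lowest edgeR adjusted p in the list was 0.331, so none of these loci passed the test. The edgeR fit over 48 libraries put 8 of the 17 at an adjusted p under 0.05, all lower, with 0.683% of all loci lower at that level. That fit includes both A. rosea libraries that stood apart. How many of the 8 remain without them is not given here. In bulk leaf samples fewer dividing cells and less of a transcript per cell cannot be told apart.

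The summed level of the list in A. rosea was 989.7, 644 and 836 CPM in bases and 575, 574 and 922 CPM in tips at index 0.3. At index 0.8 it was 638, 964 and 304 CPM in bases and 444, 160 and 354 CPM in tips. All 3 tips at index 0.8 were below all 3 tips at index 0.3, while the bases overlapped. Both libraries that stood apart held the lowest sums, 304 and 160 CPM. Without them the median was -0.39, all 17 loci were still lower, 4 were at an unadjusted p under 0.05 and 12 were bounded. With any 1 library left out it ran from -1.04 to -0.57. In A. prostrata the sum was 1130, 1422 and 1208 CPM in bases and 1127, 807 and 938 CPM in tips at index 0.3. The index 0.8 values were 1295, 1460 and 1121 CPM in bases and 853, 1066 and 754 CPM in tips, so both parts overlapped between the ages. In the step before, the list's median had been -0.96 in A. prostrata, with 6 of 17 called as lower, and -0.78 in A. rosea, with 1 of 17.

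CYCB1;1, a B-type cyclin that accumulates at the entry into mitosis, was at 40.7, 20.3 and 32.2 CPM in A. rosea bases and 19.7, 23.5 and 32.4 CPM in tips at index 0.3. Bases of index 0.8 were between 8.77 and 35.5 CPM and tips at 15.2, 5.07 and 11.2 CPM. The tips did not overlap between the ages and the bases did. The log2 fold change was -0.84 (SE 0.33; edgeR adjusted p = 0.353), with a 95% interval from -1.55 to -0.13. Without both libraries that stood apart it was -0.48, with an interval from -1.01 to 0.06. In A. prostrata it was -0.08 (SE 0.15; edgeR adjusted p = 1.0), an interval of -0.40 to 0.24. CYCA1;1, an A-type cyclin, was estimated at -0.82 (SE 0.25) in A. rosea, POK2, a kinesin that guides the phragmoplast, at -0.90 (SE 0.28), and PLE, a microtubule bundling protein of the phragmoplast, at -0.67 (SE 0.24), each at an edgeR adjusted p of 0.331. Without those libraries the estimates were -0.57 for CYCA1;1, -0.58 for POK2 and -0.39 for PLE.

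DNA replication genes gave smaller estimates. The list of 15 loci had a median of -0.12 in A. prostrata, where all 15 were bounded. In A. rosea the median was -0.36, with 14 of 15 lower and 14 bounded. Of the lower loci, 8 were at an unadjusted p under 0.05 (5.35% of all loci were lower at that level). Without both libraries that stood apart the median was -0.23. MCM2, a subunit of the helicase that opens DNA for replication, was at 138, 111 and 132 CPM in A. rosea bases and 88.2, 87.0 and 131 CPM in tips at index 0.3. At index 0.8 it was at 96.6, 140 and 62.9 CPM in bases and 67.6, 56.2 and 67.2 CPM in tips. Again only the tips were apart. Its log2 fold change was -0.51 (SE 0.17; edgeR adjusted p = 0.331) in A. rosea and -0.15 (SE 0.19; edgeR adjusted p = 1.0) in A. prostrata, or -0.27 there without the nearly alike libraries. Without both libraries that stood apart the A. rosea estimate was -0.35 (SE 0.16).

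Histone loci, whose products package new DNA and whose reads may be shared among near-identical copies, had medians of -0.05 in A. prostrata, with 28 of 30 bounded, and -0.45 in A. rosea, with 14 of 29 bounded. The stomatal lineage list, which holds the factors that take epidermal cells through the divisions that end in guard cells, had medians of -0.05 and -0.42, and all 8 of its tested A. rosea loci were below 0. Without both A. rosea libraries that stood apart the medians were -0.18 and -0.20, and 6 of the 8 stomatal lineage loci were below 0 and 2 above. Without the nearly alike libraries the A. prostrata medians were 0.02 for histones and -0.23 for the stomatal lineage. MUTE, which ends those divisions, was between 0.0844 and 2.54 CPM in the A. rosea libraries of index 0.8 and between 0.863 and 1.79 CPM at index 0.3. In A. prostrata it ranged from 1.61 to 17.9 CPM at index 0.8 and from 6.65 to 18.0 CPM at index 0.3. FAMA, which acts after MUTE in guard cell formation, was estimated at -0.34 (SE 0.11; edgeR adjusted p = 0.331) in A. rosea, and at -0.27 (SE 0.12) without both libraries that stood apart. STM, a meristem gene, was at most 0.215 CPM in every library and was not tested.

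**Figure D4:**
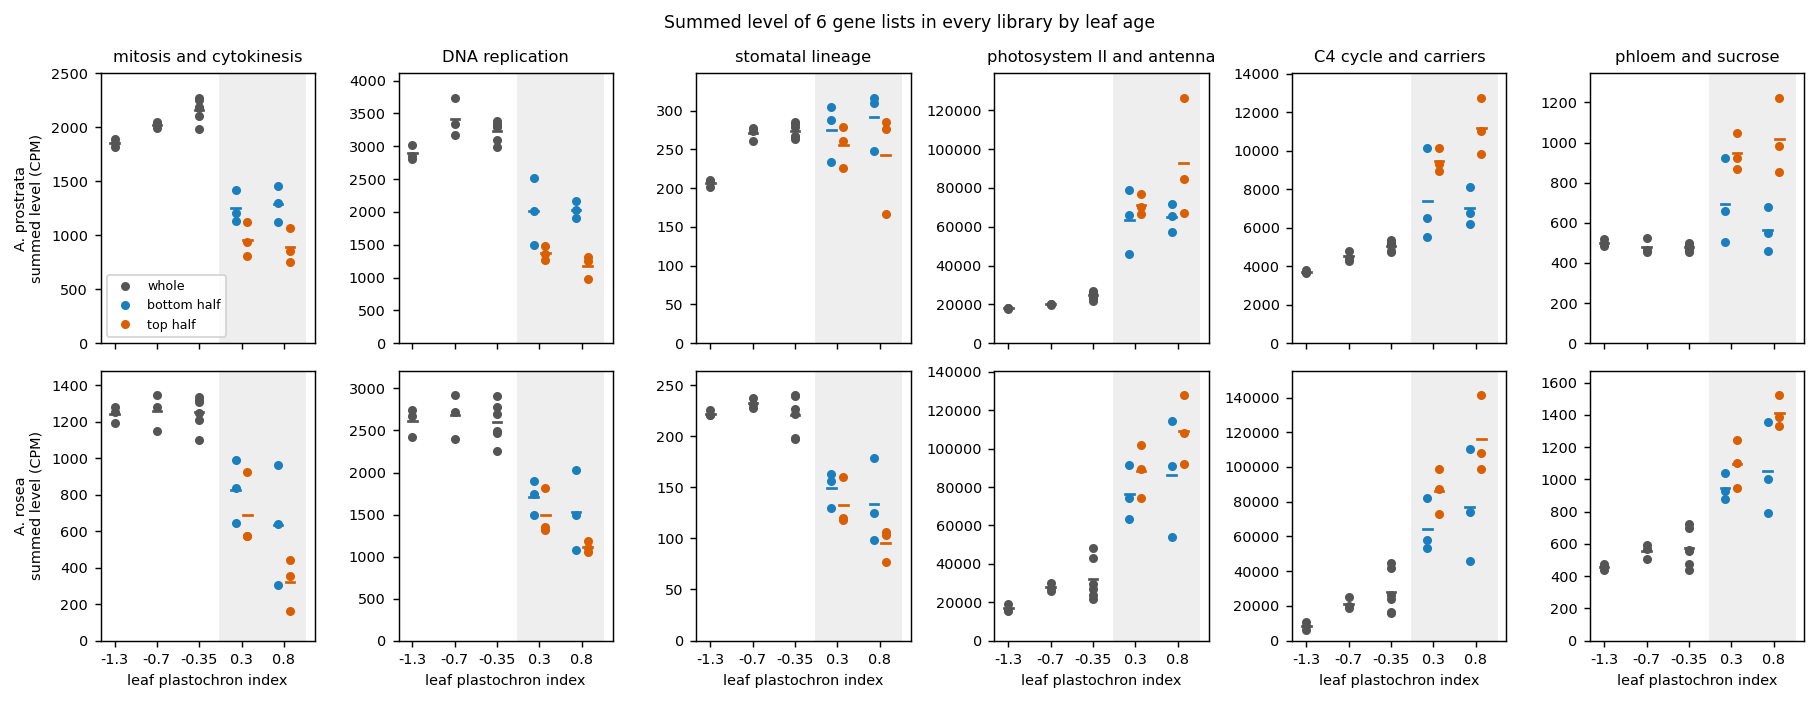
Summed level (y axis, CPM) of 6 gene lists in every library against the leaf plastochron index, with A. prostrata above and A. rosea below; grey points are whole leaves, blue bases, orange tips, lines are means, and grey shading marks the late step. In the shaded area the mitosis sums of A. rosea tips lie at 574 to 922 CPM at index 0.3 and at 160 to 444 CPM at index 0.8, while those of A. prostrata overlap.

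Most genes of the photosynthetic apparatus had estimates and intervals inside 2-fold at this step, as did most loci. Of all tested loci 95.1% were bounded in A. prostrata and 93.4% in A. rosea, and from 50 CPM 99.1% and 96.5%. The bounded counts below lie near these shares and do not set photosynthesis genes apart. All 18 loci of photosystem II and its antenna were bounded in both species, with medians of 0.21 in A. prostrata and 0.30 in A. rosea, and every estimate was above 0. In the step before, 18 of 18 (A. prostrata, median 1.44) and 16 of 18 (A. rosea, median 1.31) had been called as higher. All 14 loci of photosystem I were bounded in both species as well, with medians of 0.19 and 0.30, after medians of 1.60 and 1.42 in the step before, when all 14 were called in both. For electron transport and the chloroplast NADH dehydrogenase-like complex, 26 of 26 loci were bounded in each species, with medians of 0.14 and 0.32 against 2.25 and 1.28 before. Of these, 12 A. rosea loci had an unadjusted p under 0.05, all higher (7.58% of all loci were higher at that level).

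The summed level of photosystem II loci was 66210, 45850 and 78880 CPM in A. prostrata bases and 66640, 77050 and 70230 CPM in tips at index 0.3. The index 0.8 values were 65320, 71650 and 57470 CPM in bases and 126500, 84620 and 66900 CPM in tips. The ages overlapped in both parts, and the tip of replicate 1 at index 0.8 was the highest. In A. rosea the sum was 63130, 91670 and 74110 CPM in bases and 101800, 89230 and 74220 CPM in tips at index 0.3, and 90840, 53810 and 114600 CPM in bases and 92160, 127900 and 108100 CPM in tips at index 0.8. The highest base and the highest tip of index 0.8 were the libraries that stood apart. Without them the A. rosea medians were 0.09 for photosystem II, 0.12 for photosystem I and 0.14 for electron transport.

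The Calvin-Benson cycle fixes carbon into sugars. All 15 tested A. prostrata loci and 14 of 15 A. rosea loci were bounded, with medians of 0.12 and 0.31. The A. rosea median was 0.07 without both libraries that stood apart, with 13 of 15 loci above 0, and the A. prostrata median was 0.27 without the nearly alike libraries. In the step before, 14 of 16 and 11 of 15 had been called as higher, with medians of 1.89 and 1.13. RBCS1A, a small subunit of Rubisco, was at 47600, 18000 and 44800 CPM in A. prostrata bases and 50200, 48800 and 42600 CPM in tips at index 0.3. At index 0.8 it was at 30200, 41400 and 30700 CPM in bases and 77200, 73800 and 49300 CPM in tips. One base at index 0.3 was the lowest of the 12 libraries and the ages overlapped. Its log2 fold change was 0.20 (SE 0.27; 95% interval -0.38 to 0.78; edgeR adjusted p = 1.0), against 3.02 in the step before. Without the nearly alike libraries it was 0.32. In A. rosea it was 0.22 (SE 0.18; edgeR adjusted p = 0.585), against 1.13 before, and 0.03 (SE 0.16) without both libraries that stood apart.

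RCA, which reactivates Rubisco, was estimated at 0.05 (SE 0.23) in A. prostrata and 0.19 (SE 0.18) in A. rosea, after 2.2 and 1.07 in the step before. The A. rosea estimate turned to -0.02 (SE 0.17) without both libraries that stood apart, and the A. prostrata estimate was 0.27 without the nearly alike libraries. Photorespiration, which recovers the carbon lost when Rubisco takes up oxygen, had medians of 0.05 and 0.33, with 21 and 19 of 21 loci bounded. Its A. rosea median was 0.11 without both libraries that stood apart. Plastid ribosomal protein genes were bounded in 27 of 27 cases in each species, with medians of 0.13 and -0.02, after medians of 1.45 with 23 called as higher in A. prostrata and 0.48 with 0 called in A. rosea in the step before. Chlorophyll synthesis genes were bounded in 13 of 13 cases in each species, with medians of 0.03 and 0.07. Of all tested loci 95.1% were bounded in A. prostrata and 93.4% in A. rosea. Without the nearly alike libraries the A. prostrata medians were 0.22 for photorespiration, 0.34 for plastid ribosomes, 0.19 for chlorophyll synthesis and 0.27 for electron transport. Without both libraries that stood apart the A. rosea median for chlorophyll synthesis turned to -0.05.

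The C4 cycle and its metabolite carriers had no member that passed the test in either species. In A. prostrata the 25 loci had a median of 0.03, with 16 above and 9 below 0, and 24 were bounded; without the nearly alike libraries the median was 0.15. In A. rosea the median was 0.36 and all 25 were above 0, 8 of them at an unadjusted p under 0.05 (7.58% of all loci were higher at that level). Of the 25 loci, 18 were bounded, beside 93.4% of all loci. The step before had called 18 of the 25 as higher in A. rosea (median 1.26) and 2 as higher and 3 as lower in A. prostrata (median 0.07). Summed over the list, A. rosea bases held 53270, 81870 and 57830 CPM and tips 98830, 87410 and 72980 CPM at index 0.3. At index 0.8 bases held 74060, 46060 and 110100 CPM and tips 98650, 141400 and 108200 CPM. The base and tip of highest sum were the libraries that stood apart, and without them the median was 0.14 with 23 of 25 above 0 and all 25 bounded.

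PPDK, which regenerates the acceptor of the first fixation step, was at 9540, 15700 and 10500 CPM in A. rosea bases and 19900, 17100 and 12700 CPM in tips at index 0.3. The index 0.8 values were 15700, 7850 and 24200 CPM in bases and 22000, 31800 and 23100 CPM in tips. The tips did not overlap and the bases did. The log2 fold change was 0.52 (SE 0.25; 95% interval -0.02 to 1.07; edgeR adjusted p = 0.395), and 0.21 (SE 0.23) without both libraries that stood apart; the step before had given 1.64. In A. prostrata PPDK was estimated at 0.00 (SE 0.14; edgeR adjusted p = 1.0). PPC2, a PEPC locus, was estimated at 0.13 (SE 0.20; 95% interval -0.30 to 0.57) in A. rosea after 1.46 in the step before, and turned to -0.13 (SE 0.18) without both libraries that stood apart. NAD-ME1, a subunit of the NAD-malic enzyme, was estimated at 0.36 (SE 0.22; 95% interval -0.10 to 0.83) after 1.34, and at 0.06 (SE 0.19) without those libraries.

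The kinases that phosphorylate PEPC and so lower its sensitivity to malate were among the loci of smallest p in A. rosea. PPCK1 was at 15.1, 20.2 and 16.6 CPM in bases and 17.9, 29.5 and 23.4 CPM in tips at index 0.3, and at 23.7, 25.6 and 38.3 CPM in bases and 34.1, 44.7 and 40.5 CPM in tips at index 0.8. Within each part every library of index 0.8 was above every library of index 0.3. Its log2 fold change was 0.75 (SE 0.14; edgeR adjusted p = 0.331), 0.59 (SE 0.13) without both libraries that stood apart, and -0.83 in the step before, which shares the index 0.3 libraries. DESeq2 gave PPCK1 an adjusted p of 0.00589. PPCK2, whose reads may be shared with PPCK1, was estimated at 0.78 (SE 0.15; edgeR adjusted p = 0.331; DESeq2 adjusted p = 0.00589). In A. prostrata PPCK1 was estimated at 0.36 (SE 0.14; edgeR adjusted p = 1.0), so both species had estimates above 0 and no difference between them was called.

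Among genes of sugar export, starch and cell walls, estimates in A. rosea were mostly above 0 and below 2-fold. The phloem and sucrose list had a median of 0.39 in A. rosea, 0.19 without both libraries that stood apart, and -0.16 in A. prostrata. SUC2, which loads sucrose into the phloem, was estimated at 0.46 (SE 0.23; edgeR adjusted p = 0.399) in A. rosea and -0.26 (SE 0.26; edgeR adjusted p = 1.0) in A. prostrata, after 1.49 and 1.92 in the step before. It was 0.19 (SE 0.22) in A. rosea without the libraries that stood apart, and turned to 0.06 in A. prostrata without the nearly alike libraries. SWEET11, a sucrose efflux carrier, was estimated at 0.86 (SE 0.36; edgeR adjusted p = 0.361) in A. rosea and at 0.38 (SE 0.33) without those libraries. SUS4, a sucrose synthase, was at 99.0 and 102 CPM in the nearly alike A. prostrata libraries and at 9.58 to 32.6 CPM in the other 10 libraries. Its A. prostrata estimate was -1.40 (SE 0.47; edgeR adjusted p = 1.0), and -0.34 without that pair.

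Starch loci had a median of 0.26 in A. rosea, with 9 of 23 higher at an unadjusted p under 0.05 (7.58% of all loci), and -0.02 in A. prostrata with 22 of 23 bounded. Without both libraries that stood apart the A. rosea median was 0.12, with 3 loci higher and 1 lower at that level. GPT2, which carries glucose 6-phosphate into plastids, was at 47.9 to 83.7 CPM in A. rosea bases and 53.6, 71.3 and 56.1 CPM in tips at index 0.3. At index 0.8 it was at 97.8, 64.9 and 119 CPM in bases and 112, 138 and 91.0 CPM in tips. The tips did not overlap. The log2 fold change was 0.73 (SE 0.17; edgeR adjusted p = 0.331), and the edgeR fit over 48 libraries gave an adjusted p of 0.00779. Without both libraries that stood apart the GPT2 estimate was 0.55 (SE 0.17). PGI1, a plastid phosphoglucose isomerase, was estimated at 0.74 (SE 0.21) and SS1, a starch synthase, at 0.59 (SE 0.19), both at an edgeR adjusted p of 0.331. Without those libraries they were estimated at 0.44 and 0.32. The secondary wall and xylem list had medians of 0.16 in A. rosea, all 18 loci bounded, and -0.01 in A. prostrata. LAC4, a laccase that polymerises lignin, was estimated at 0.44 (SE 0.10; edgeR adjusted p = 0.331), between 15.0 and 17.8 CPM at index 0.3 and between 17.7 and 25.7 CPM at index 0.8 in A. rosea. Its estimate was 0.31 (SE 0.09) without the libraries that stood apart. XTH6, which remodels wall xyloglucan, was estimated at 0.87 (SE 0.29; edgeR adjusted p = 0.331), and at 0.52 (SE 0.29) without the libraries that stood apart.

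**Figure D5:**
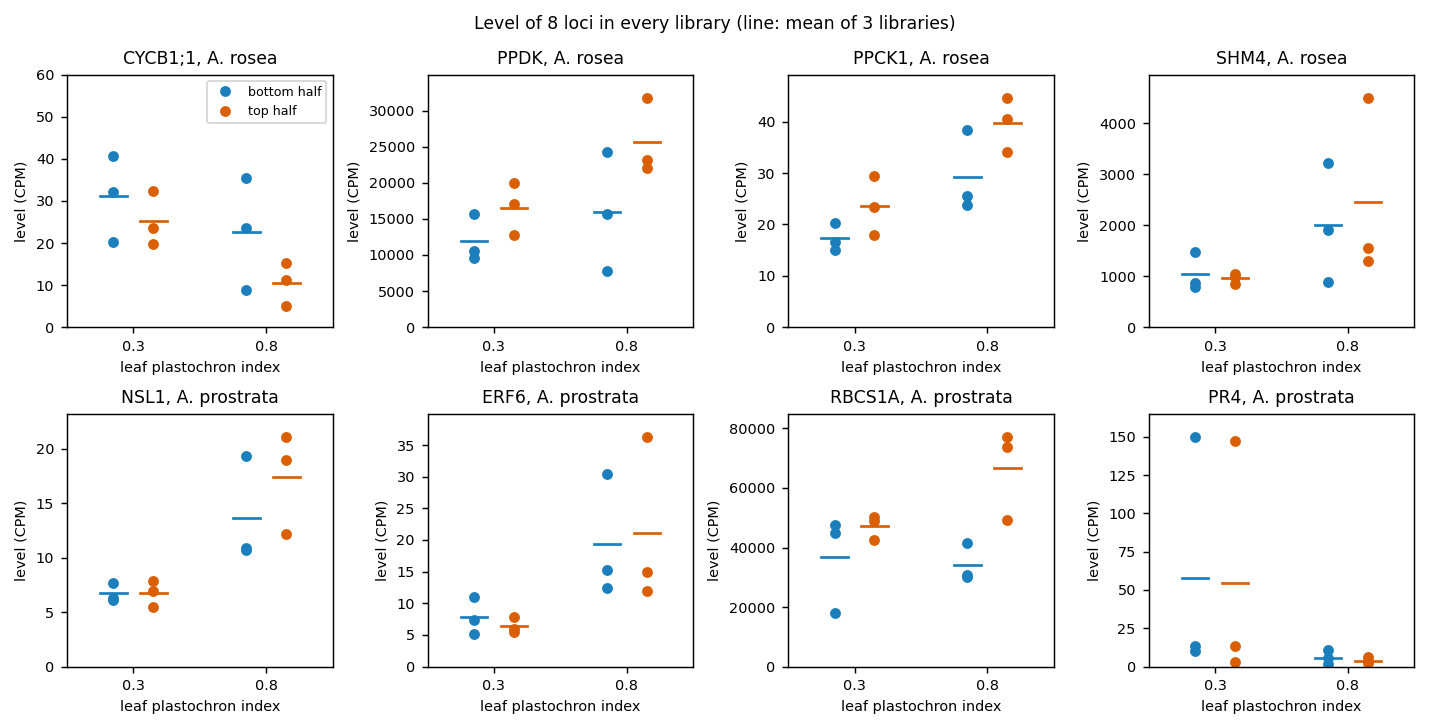
Level (y axis, CPM) of 8 loci in each library at index 0.3 and 0.8, 4 in A. rosea (top row) and 4 in A. prostrata (bottom row); blue points are bases, orange tips, and lines are means of 3 libraries. PPCK1 and NSL1 libraries of index 0.8 lie above those of index 0.3 within each part, and the PR4 values of 147 and 150 CPM are the nearly alike replicate 1 libraries.

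The 10 A. prostrata loci of smallest p among those with a mean of at least 5 CPM all had higher levels at index 0.8. NSL1, known in Arabidopsis to restrain cell death, was at 6.15, 6.33 and 7.66 CPM in bases and 5.44, 7.87 and 6.91 CPM in tips at index 0.3. It was at 10.9, 19.3 and 10.7 CPM in bases and 12.2, 21.1 and 19.0 CPM in tips at index 0.8. All 6 libraries of index 0.8 were above all 6 of index 0.3, which include the nearly alike libraries (6.15 and 5.44 CPM). The log2 fold change was 1.19 (SE 0.20; edgeR adjusted p = 0.388; DESeq2 adjusted p = 0.000242), after -1.51 in the step before, which shares the index 0.3 libraries. In A. rosea NSL1 was estimated at 0.23 (SE 0.34; edgeR adjusted p = 0.791).

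ERF6, an ethylene-responsive transcription factor, was at 7.29, 5.18 and 11.0 CPM in A. prostrata bases and 7.86, 5.90 and 5.50 CPM in tips at index 0.3. It was at 12.4, 30.5 and 15.3 CPM in bases and 11.9, 36.3 and 14.9 CPM in tips at index 0.8. The ages did not overlap, and the highest values in both parts were those of replicate 2. The nearly alike libraries of index 0.3 were at 7.29 and 7.86 CPM. The log2 fold change was 1.51 (SE 0.31; edgeR adjusted p = 0.442; DESeq2 adjusted p = 0.00496), after -2.65 in the step before. The tetraspanins TET7 (1.11, SE 0.21, no overlap) and TET8 (1.02, SE 0.22), the ERF family locus AT5G07580 (1.53, SE 0.32, no overlap) and the uncharacterised loci AT4G29780 (2.43, SE 0.50) and AT1G32928 (2.31, SE 0.49) had edgeR adjusted p-values of 0.442, and DESeq2 called all 5. WRKY40, a transcription factor of wound and pathogen responses, was estimated at 1.00 (SE 0.25; edgeR adjusted p = 0.659). The wounding and jasmonate list it belongs to had a median of 0.22, and of 0.01 without the nearly alike libraries.

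Lower estimates in A. prostrata included a clock gene and a defence gene. TOC1, an evening component of the circadian clock, was at 10.1, 8.93 and 6.45 CPM in bases and 8.31, 5.90 and 7.02 CPM in tips at index 0.3, and at 5.66, 4.03 and 4.29 CPM in bases and 4.26, 5.27 and 4.94 CPM in tips at index 0.8. The ages did not overlap, but 10.1 and 8.31 CPM, the highest base and the highest tip of index 0.3, were the nearly alike libraries. Its log2 fold change was -0.71 (SE 0.16; edgeR adjusted p = 0.442), with an adjusted p of 0.00419 in the edgeR fit over 48 libraries. PR4, a pathogenesis-related protein, was at 150 and 147 CPM in the nearly alike replicate 1 libraries and at 1.53 to 13.7 CPM in the other 10, and its estimate was -3.49 (SE 0.89; edgeR adjusted p = 0.659). Without that pair it was -1.04 (edgeR adjusted p = 1.0).

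In A. rosea the 10 loci of smallest p among those with a mean of at least 5 CPM had estimates below 2-fold. Of these, 9 were higher and 1 lower at index 0.8. HB2, a plant haemoglobin, was at 70.4, 90.2 and 74.9 CPM in bases and 105, 129 and 94.6 CPM in tips at index 0.3, and at 114, 103 and 168 CPM in bases and 157, 164 and 200 CPM in tips at index 0.8. Within each part the ages did not overlap. The log2 fold change was 0.69 (SE 0.13; edgeR adjusted p = 0.331; DESeq2 adjusted p = 0.00549) and 0.59 (SE 0.11) without both libraries that stood apart. AT1G26550, annotated as a peptidyl-prolyl isomerase, was at 35.3 to 46.7 CPM at index 0.3 and 47.1 to 69.7 CPM at index 0.8, with no overlap and an estimate of 0.46 (SE 0.08; edgeR adjusted p = 0.331). HB1, another haemoglobin, was estimated at 0.75 (SE 0.15) and the BolA-like locus AT5G09830 at 0.65 (SE 0.13). DESeq2 called the amine oxidase loci AT1G62810 (1.34, SE 0.30) and AT3G43670 (1.23, SE 0.29), whose reads may be shared, and CPuORF30, an upstream open reading frame (1.64, SE 0.40). In edgeR without both libraries that stood apart these were 0.92, 0.76 and 0.92.

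Cytosolic ribosomal protein genes were bounded almost throughout, beside 95.1% of all tested loci in A. prostrata and 93.4% in A. rosea. In A. prostrata 167 of 168 were bounded with a median of 0.08, and in A. rosea 165 of 165 with a median of 0.11, which was -0.03 when levels were scaled to library totals. The A. prostrata median was 0.28 without the nearly alike libraries. Leaf growth regulators had medians of -0.09 and -0.07, with 20 and 19 of 21 bounded, after -0.88 and -0.52 in the step before, when 9 of 21 were called as lower in each species. Senescence and chlorophyll breakdown genes had medians of -0.02 and 0.24. SAG12, a protease gene used as a marker of senescence, stayed between 0.972 and 3.76 CPM in A. prostrata and between 6.12 and 8.81 CPM in A. rosea, with estimates of -0.41 (SE 0.25; edgeR adjusted p = 1.0) and 0.13 (SE 0.11; edgeR adjusted p = 0.613). The A. prostrata estimate was -0.24 without the nearly alike libraries. Fewer loci were bounded among wounding and jasmonate genes and cell wall expansion genes of A. prostrata, 5 of 8 and 11 of 16.

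Bases and tips were also tested apart. In A. prostrata 1.02% of 13891 loci had an unadjusted p under 0.05 in bases and 2.02% in tips, and in A. rosea 2.77% of 13869 in bases and 9.17% in tips. edgeR called 0 loci in each of the 4 tests, and DESeq2 called 6 in A. prostrata tips (0.0432%). In A. rosea tips the mitosis median was -1.16, with 14 of 17 loci lower at an unadjusted p under 0.05 (4.57% of all loci were lower at that level), and the histone median was -0.84, with 22 of 29. In A. rosea bases the medians were -0.38 and -0.06. At index 0.8 the tips and the bases each include a library that stood apart, with the lowest mitosis sum of its part (160 and 304 CPM). These medians by part are not given without them. The test of the difference between bases and tips called 0 loci in both species, with 0.497% and 1.49% of loci at an unadjusted p under 0.05. Photosystem II medians were 0.04 in bases and 0.39 in tips of A. prostrata, and 0.27 and 0.32 in A. rosea.

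Averaged over both ages, tips against bases gave more calls than age did. In A. prostrata edgeR called 25 loci as higher and 45 as lower in tips (0.508% of 13767), and in A. rosea 0 as higher and 23 as lower (0.167% of 13746). The A. prostrata count moved with the nearly alike replicate 1 libraries, 1 labelled base and 1 labelled tip. It was 238 without both and 251 without the base alone, while it was 0 in 10 of the 12 fits that left out 1 library. In A. rosea it ran from 5 to 92 with 1 library left out, the highest without the tip of replicate 3 of the 11 mm leaves.

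The change with age was compared between the species in 1 fit of the 24 libraries. Of 14337 loci 0 were called (0%), 683 (4.76%) had an unadjusted p under 0.05, 426 (2.97%) with the higher estimate in A. rosea and 257 (1.79%) in A. prostrata, and DESeq2 and the edgeR fit over 48 libraries called 0 as well. Among loci with a mean of at least 5 CPM the smallest p was that of AT5G07140, a protein kinase locus. Its estimates were 0.51 in A. prostrata and -0.46 in A. rosea, a difference of -0.97 (SE 0.22, edgeR adjusted p = 0.885). The intervals of this difference lay inside 2-fold for 79.9% of loci. The lists whose medians lay apart, such as mitosis (-0.02 and -0.76) and phloem and sucrose (-0.16 and 0.39), thus had no member with a called difference between the species.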

How the data were processed

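The authors deposited 1 table with raw read counts per Arabidopsis thaliana locus and library; the submitters' processing notes list CASAVA, DESeq2 and TAIR10, while the aligner is not given in the sources used here. Reads of close Atriplex paralogs may be spread over several loci, and strand use is not stated. Of 60 count columns 48 matched labels and 12 were not used; 5 of 21976 loci had displaced values and were left out. No genome was used, so no sequence or position is given. No label ties replicates to separate plants; p-values therefore cover only the spread among these libraries, which may be technical.

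Counts were fitted per species in edgeR 4.0.16 (R 4.3.3) with leaf part as covariate, the default filter on low counts, TMM (trimmed mean of M-values) scaling and a quasi-likelihood F test, with Benjamini-Hochberg adjustment across every tested locus. SE, the standard error, was obtained from the estimate and its F statistic. TMM factors ran from 0.793 to 1.18. With library totals instead, the median estimate over all loci (log2) shifted by -0.07 in A. prostrata and -0.13 in A. rosea, and changes are reported relative to the TMM scale. DESeq2 1.42.0, other scalings and filters, a replicate block, summed leaf parts and left-out libraries were alternatives. The fitting code was tested on simulated data.

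The 31 gene lists hold 755 loci, 650 of them in the table. Named were the 10 largest changes in each direction among called loci of at least 5 CPM, filled up with the 10 loci of smallest p where few were called, up to 4 loci per list with the smallest p in either species, and a set of marker genes; LHCB1.1, one of these, was not analysed here. Loci called by DESeq2 or the fit over 48 libraries, and loci of smallest p in the species difference, were chosen after their values were seen. The libraries and lists were chosen with earlier results of these data known. Statements that the ages did or did not overlap only describe the named loci. Many of these were picked by p, and the share of all loci without overlap was not counted.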

Additional observations from a re-analysis of the deposited data

How the results depend on the processing

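In edgeR, 0 loci were called in both species and in their difference under library totals, DESeq2-type size factors, organelle loci left out, no filter, at least 5 CPM, any fold change, summed leaf parts and each library left out (range 0 to 0). DESeq2 called 9 loci in A. prostrata, 3 in A. rosea and 6 in A. prostrata tips, and the fit of group means over 48 libraries 4 and 50. For tips against bases, leaving out 1 library gave 0 to 251 calls in A. prostrata and 5 to 92 in A. rosea, and leaving out both 15 mm replicate 1 libraries gave 238. The cause was not tested. Bounded loci numbered 12821 to 13018 and 12624 to 12981 with 1 library left out. Of 7499 alternatives for 335 named values, 27 became calls, 12 under DESeq2 and 15 in the fit over 48 libraries, and 0 reversed a call. Loci under 5 CPM were bounded least often; depth itself was not varied. Leaving out both A. rosea libraries that stood apart was chosen after seeing the data.

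The replicate numbers share no stated source. Of 36 pairs of same-numbered libraries of different groups, 18 had deviations correlated above 0.1 (range -0.63 to 0.52). Base and tip were at 0.22, 0.36 and 0.44 in 18 mm A. prostrata leaves and at -0.12, -0.49 and -0.28 in 13 mm A. rosea leaves. The nearly alike libraries were at only 0.44, so these values cannot decide whether same-numbered parts come from 1 leaf. The numbers were not taken as pairs in the main fits. With a replicate block 0 loci were called with age in both species and in their difference, and 109 in A. prostrata tips against bases.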

Other observations

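The edgeR fit over 48 libraries called 47 loci (0.318%) as higher at index 0.8 in A. rosea, and 0 without both libraries that stood apart. Some of these loci are given here as values only, picked after their values were seen, with no test of any group. Among the 47 were the ferritin loci FER1, FER2 and FER4, whose products store iron, the nicotianamine synthase loci NAS1, NAS2 and NAS3, which make a metal chelator, and the metal transporter loci ZIP1, ZIP4, ZIP5, ZIP7, ZIP9 and ZIP12. The ZIP loci ZIP2, ZIP6, ZIP10 and ZIP11 were not among them. FSD1, an iron superoxide dismutase, and HMA1, a metal-transporting ATPase of the chloroplast envelope, were called there too, with log2 fold changes of 1.58 and 1.41. Reads of 1 Atriplex gene may be counted at several of these Arabidopsis loci.

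The 6 ZIP loci called there together held 24.4, 330 and 63.0 CPM in A. rosea bases and 27.4, 48.4 and 50.9 CPM in tips at index 0.3, and 357, 58.6 and 465 CPM in bases and 40.8, 551 and 118 CPM in tips at index 0.8. The 3 nicotianamine synthase loci held 2.37, 39.6 and 6.89 CPM in bases and 2.1, 5.47 and 6.69 CPM in tips at index 0.3, and 47.1, 4.84 and 72.5 CPM in bases and 4.73, 72.2 and 16.1 CPM in tips at index 0.8. The same 4 of 12 libraries were high in both families, 1 of them at index 0.3. In A. prostrata the ZIP sums lay between 25.4 and 46.6 CPM in all 12 libraries. FER1 was at 21.0 to 32.8 CPM at index 0.3 in A. rosea, and at 48.8, 29.9 and 164 CPM in bases and 25.4, 232 and 39.1 CPM in tips at index 0.8. Its estimate was 1.82 (SE 0.52; edgeR adjusted p = 0.331), and 0.49 (SE 0.19) without both libraries that stood apart.

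Further loci among the 47, also picked after their values were seen, were PMEAMT, AT3G23810 and SHM4. PMEAMT, a methyltransferase of phosphocholine synthesis, was at 1010, 1150 and 727 CPM in A. rosea bases and 1740, 1010 and 841 CPM in tips at index 0.3, and at 1270, 971 and 2340 CPM in bases and 4730, 4410 and 1880 CPM in tips at index 0.8. The tips did not overlap. Its estimate was 1.14 (SE 0.31; edgeR adjusted p = 0.331), and 0.87 (SE 0.32) without both libraries that stood apart. AT3G23810, an S-adenosylhomocysteine hydrolase that removes the product of methylation, was estimated at 1.09 (SE 0.34), and SHM4, a serine hydroxymethyltransferase of one-carbon supply, at 1.15 (SE 0.34), with 3220 and 4500 CPM in the libraries that stood apart and 787 to 1910 CPM in the other 10. Without those libraries AT3G23810 was estimated at 0.47 (SE 0.23) and SHM4 at 0.50 (SE 0.22). Of the 47 loci, 34 had those libraries as their highest pair at index 0.8, and 0 were free of overlap between the ages. The shares of all tested loci with these traits were not counted, so both counts only describe the 47.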
